A study of Homo sapiens with 6 samples.

Results

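A set of 10 genes of the Hippo pathway was followed after knockdown of the transcription factor ZEB1 in SW480, an established human colorectal adenocarcinoma cell line. It held the kinases LATS1, LATS2, STK3 and STK4, the coactivators YAP1 and WWTR1 (the gene of the TAZ protein), the DNA-binding partners TEAD1 and TEAD4, and the target genes AMOTL2 and ANKRD1. The genes, like the further lists below, were chosen by name with earlier results of these data known. All 10 were found among the 32029 genes listed in the count tables. Total RNA was sequenced from 6 wild-type SW480 cultures 48 h after transfection, 3 with a control siRNA (siNC in the labels, siControl below) and 3 with an siRNA against ZEB1 (siZEB1). Both groups are the same cell line, and the labels name no other agent. The cultures are described by the study as biological replicates, so the p-values below set the group difference against the spread between cultures of this one line.

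In the Hippo pathway, STK3 and STK4 (MST2 and MST1) phosphorylate and activate LATS1 and LATS2, with SAV1 and MOB1A as their cofactors. LATS1 and LATS2 then phosphorylate YAP1 and TAZ, which are held in the cytoplasm and degraded. When the kinases are inactive, YAP1 and TAZ enter the nucleus, bind TEAD factors and switch on growth and matrix genes such as CCN1, CCN2 and ANKRD1. The output is thus set largely by phosphorylation and location of the proteins, which RNA counts do not measure. ZEB1 is a zinc finger factor that binds E-box sequences and is best known for repressing epithelial genes.

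The short promoter sequences that ZEB1 or TEAD factors are known to bind are shown first, beside the genes that carry them. RefSeq (GRCh38.p14) gave the 250 bases before a transcription start for 7 of the 10 genes. These windows were searched for an E-box with the letters CACCTG, for a further E-box with the letters CAGGTA, and for the TEAD motif with the letters GGAATG. Both strands were read, so that a match may also appear as the reverse complement, and no match of one motif overlapped another. Of 35116 promoter windows of this length, 17.5% held CACCTG, 7.99% held CAGGTA and 11.9% held GGAATG. The LATS2 window (chr13:21061587-21061836, minus strand) is printed whole, since LATS2 had the largest rise among the 10 genes, and capitals mark its single E-box, whose first base lies 136 bases before the start.
LATS2: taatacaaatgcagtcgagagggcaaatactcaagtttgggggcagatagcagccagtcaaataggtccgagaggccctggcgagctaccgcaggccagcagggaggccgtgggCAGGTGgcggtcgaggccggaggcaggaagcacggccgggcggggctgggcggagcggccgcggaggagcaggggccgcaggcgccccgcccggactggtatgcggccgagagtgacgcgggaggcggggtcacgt

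Matches in the windows of the target genes and of YAP1 are shown as stretches of 30 bases, with every motif in capitals. ANKRD1 held the TEAD motif at 220 and 128 bases before the start and an E-box at 116, and AMOTL2 held a TEAD motif at one start (69 bases) and an E-box at the other (9 bases). CCN2, a target gene outside the 10, held the TEAD motif at 169, 104 and 95 bases. YAP1 held one TEAD motif, at 162 bases. The RefSeq starts used for ANKRD1 and AMOTL2 lie inside these genes as GENCODE 29 annotates them, and 189 of the 250 bases of the ANKRD1 window, and 147 and 62 of those of the AMOTL2 windows, are in exons of the same gene.
ANKRD1 (chr10:90921290-90921319, minus strand): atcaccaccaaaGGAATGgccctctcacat
ANKRD1 (chr10:90921192-90921221, minus strand): gagtctGGAATGaaaattCACCTGcctctg
AMOTL2 (chr3:134374499-134374528, minus strand): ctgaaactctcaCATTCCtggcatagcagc
AMOTL2 (chr3:134375418-134375447, minus strand): ccaagcagcccagtggttgatTACCTGgtt
CCN2 (chr6:131951524-131951553, minus strand): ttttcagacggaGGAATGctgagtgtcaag
CCN2 (chr6:131951455-131951484, minus strand): ggtggggaGGAATGcgaGGAATGtccctgt
YAP1 (chr11:102110273-102110302, plus strand): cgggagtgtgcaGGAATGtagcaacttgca
The windows of LATS1, STK4 and WWTR1 held none of these letters. Their starts also lie inside the genes as GENCODE 29 annotates them. Exons of the same gene cover 0 and 155 of the 250 bases for LATS1, 38 for STK4, and 76 and 55 for WWTR1. Such a match describes the sequence only, and binding was not measured in these files.

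The knockdown was present in every siZEB1 culture. ZEB1 had 58.6, 57.0 and 47.1 CPM (reads scaled to a common library size by TMM) in the siControl cultures and 7.20, 6.86 and 8.46 CPM in the siZEB1 cultures (log2 fold change -2.85, SE 0.11, adjusted p = 4.85e-12). Total counts ran from 19040636 to 22357633 per culture. Of the 14996 genes that passed the filter on low counts, 19.0% were higher and 21.2% lower in siZEB1 at an adjusted p under 0.05 in edgeR's quasi-likelihood test, and the median log2 fold change was -0.0055. Of 9 colon epithelial markers, EPCAM, KRT8, KRT18, CDX2 and VIL1 had a mean of at least 1 CPM, whereas KRT20, CDH17 and LGALS4 were near 0 and CDX1 was not listed. EPCAM (log2 fold change 3.05) and VIL1 (2.34) rose and CDX2 (-1.30) fell. Of 6 fibroblast markers, 5 were listed (DCN was not), and their summed level was 9.78 to 11.0 CPM in siControl and 7.79 to 9.91 CPM in siZEB1, nearly all of it COL1A1. Of 5 leukocyte markers, 4 were listed (PTPRC was not), and these summed to under 1 CPM in every culture. Of 4 endothelial markers, PECAM1 and VWF were listed and CDH5 and KDR were not, and the sum of the 2 listed was 2.02 to 2.72 CPM in siControl and 1.54 to 2.60 CPM in siZEB1. The cultures numbered 3 stood apart from the others by gene length. Among genes with at least 10 CPM, siControl 3 differed from the mean of siControl 1 and 2 by a median of 0.11 on the log2 scale (tested genes in 4 classes by exon length) in the length class with the shortest exons and by -0.091 in the class with the longest, and siZEB1 3 differed from its group by -0.12 and 0.077. LATS1, STK3, STK4, WWTR1 and TEAD1 are in the class of the longest genes (exons of 7071 bases and more). TEAD4 and ANKRD1 are in the class of the shortest (at most 2692 bases). The values of the 10 genes without the cultures numbered 3 are therefore given as well.

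Of the 10 genes, 2 rose, 4 fell and 4 did not pass the test, against the 19.0% and 21.2% of all tested genes. LATS2 rose the most, 1.91-fold, and LATS1 rose 1.19-fold. STK4, ANKRD1 and TEAD1 fell by 28.3%, 27.2% and 26.9%, and WWTR1 fell by 15.6%. STK3, YAP1, TEAD4 and AMOTL2 did not pass. The siControl and siZEB1 values did not overlap for 7 of the 10 genes (2 higher and 5 lower), where 49.5% of all tested genes did not overlap. The median log2 fold change of the 10 genes was -0.11. In RNA from whole cultures, fewer cells with a transcript and less of it per cell cannot be told apart, and the part of the shifts in EPCAM, VIL1 and CDX2 in these results was not tested. Without both cultures numbered 3, the log2 fold changes were 0.84 for LATS2, -0.60 for STK4, -0.61 for TEAD1, -0.44 for ANKRD1, -0.30 for WWTR1 and -0.036 for AMOTL2, and those of the other 4 genes are given with each gene below. All 10 passed the filter on low counts, with at least 256 reads in every culture.

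**Figure D1:**
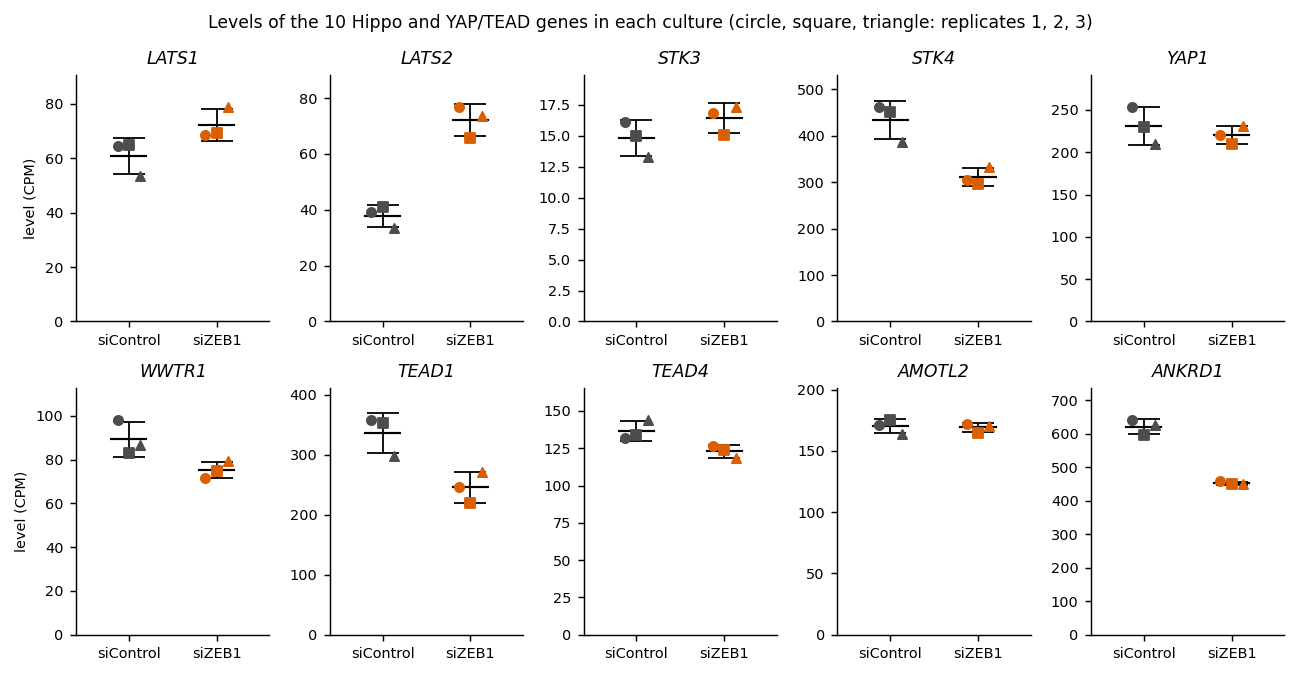
Level (CPM, linear axis from 0) of each of the 10 genes in the 3 siControl and 3 siZEB1 cultures, with the mean and SD of each group as bars and the replicate number as the shape of the point. LATS2 lies between 33.3 and 41.0 CPM in siControl and between 65.9 and 76.9 CPM in siZEB1, whereas the values of AMOTL2 and YAP1 overlap between the groups.

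LATS2 encodes a kinase that phosphorylates YAP1 and TAZ, as LATS1 does, and it lies at chr13:20973032-21061547 (minus strand, GRCh38). Its level was 39.0, 41.0 and 33.3 CPM in the siControl cultures and 76.9, 65.9 and 73.6 CPM in the siZEB1 cultures (642 to 919 and 1267 to 1452 reads). Every siZEB1 culture was thus above every siControl culture. The mean was 37.8 ± 4.01 CPM in siControl and 72.1 ± 5.65 CPM in siZEB1 (SD over 3 cultures, as throughout), which is a rise of 0.93 on the log2 scale (SE 0.085, 95% confidence interval 0.75 to 1.11, adjusted p = 1.98e-07). LATS2 was among the genes that the study took from these cultures for ChIP at its promoter, so its direction here is not independent of that choice. The promoters that the study names as significantly enriched are those of CLDN7, ANXA7, CAB39L and ETV7. LATS2 is not among them. The study does list LATS2 among putative tumor suppressor genes that rose after ZEB1 depletion. It compared the expression of such genes in SW480 between qRT-PCR and RNA-seq. The ChIP primers of the study are given with its design, and neither was found in any of the promoter windows or in any GENCODE 29 transcript, so their position is not given here.
LATS2 ChIP forward primer: gactgaaggctgggtgag
LATS2 ChIP reverse primer: gcaagtgatgctgagggt

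LATS1, the paralog of LATS2 (chr6:149658153-149718256, minus strand), rose far less. Its level was 64.6, 64.8 and 53.3 CPM in siControl and 68.4, 69.3 and 78.9 CPM in siZEB1. The lowest value was that of siControl 3 and the highest that of siZEB1 3. The log2 fold change was 0.24 (SE 0.084, 95% confidence interval 0.07 to 0.42, adjusted p = 0.0275). It was 0.16 without siControl 3 (adjusted p = 0.0973), 0.18 without siZEB1 3 (adjusted p = 0.118) and 0.093 without both (adjusted p = 0.262), so the call rests on the cultures numbered 3.

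Levels per kilobase were taken over all annotated exons of a gene, whichever isoforms were expressed. Levels and shares set side by side between genes depend on that length. On this scale, the values of the LATS paralogs overlapped in siControl (7.05 ± 0.760 for LATS1 and 6.78 ± 0.720 CPM per kilobase for LATS2). They lay apart in siZEB1 (8.36 ± 0.674 and 12.9 ± 1.01). The ratio of LATS2 to LATS1 within each culture was 0.936, 0.981 and 0.968 in siControl and 1.74, 1.47 and 1.44 in siZEB1. The groups did not overlap, and the log2 ratio differed by 0.69 (exact permutation test, two-sided, p = 0.10, the smallest that 3 against 3 cultures allow, and 0.133 after adjustment over the 4 paralog ratios). The sum of both genes went from 13.8 ± 1.47 to 21.3 ± 1.30 CPM per kilobase, 54.0% higher, and the share of LATS2 in it from 49.0% to 60.7%.

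The upstream kinases went the other way in sum. STK4 (chr20:44966474-45079959, plus strand) was at 462, 451 and 387 CPM in siControl and at 304, 295 and 333 CPM in siZEB1. The lowest siControl culture was above the highest siZEB1 culture. The mean was 433 ± 40.4 CPM in siControl and 311 ± 19.7 CPM in siZEB1 (log2 fold change -0.48, SE 0.069, 95% confidence interval -0.63 to -0.33, adjusted p = 3.09e-05). STK3 (chr8:98371228-98942827, minus strand) lay between 13.3 and 16.1 CPM in siControl and between 15.1 and 17.3 CPM in siZEB1, with overlap. The change of 0.15 in STK3 did not pass the test (95% confidence interval -0.06 to 0.36, adjusted p = 0.26). It was 0.075 without siControl 3 and 0.039 without both cultures numbered 3.

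STK4 made up 97.6% of the summed STK3 and STK4 level per kilobase in siControl and 96.3% in siZEB1. The ratio of STK4 to STK3 was 39.8, 41.7 and 40.5 in siControl and 25.0, 27.2 and 26.6 in siZEB1. These values did not overlap either, with a log2 difference of -0.63 (exact permutation p = 0.10, adjusted 0.133). The sum went from 48.9 ± 4.57 to 35.6 ± 2.25 CPM per kilobase, a change of -27.3%.

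**Figure D2:**
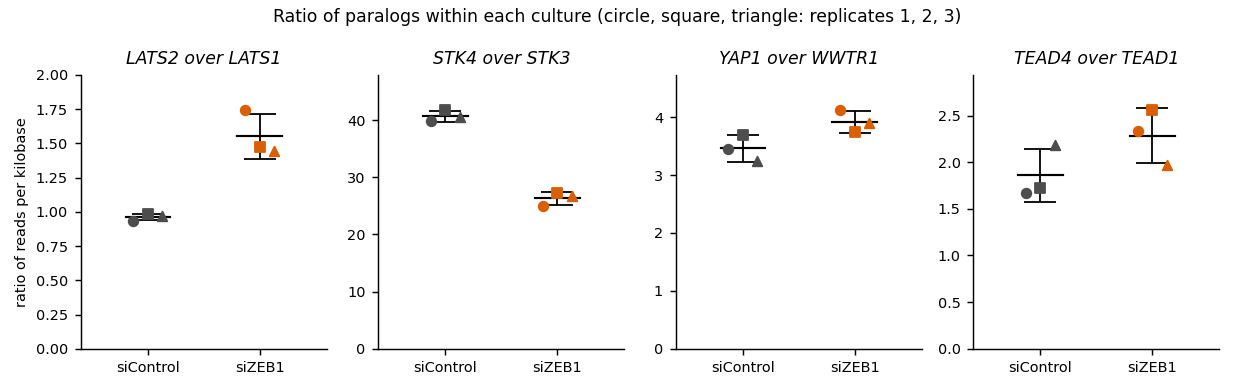
Ratio of reads per kilobase of exon between paralogs within each culture (linear axes from 0), with the mean and SD of the 3 cultures of a group and the replicate number as the shape of the point. The groups do not overlap for LATS2 over LATS1, STK4 over STK3 and YAP1 over WWTR1, and they overlap for TEAD4 over TEAD1.

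YAP1, the coactivator (chr11:102110461-102233423, plus strand), had 254, 229 and 210 CPM in siControl and 221, 210 and 231 CPM in siZEB1. The groups overlapped, and siControl 1 held the highest value. The log2 fold change was -0.07 (95% confidence interval -0.21 to 0.08, adjusted p = 0.482). It was 0.0061 without siControl 1 (adjusted p = 0.956) and -0.16 without both cultures numbered 3 (adjusted p = 0.00525), the only setting in which YAP1 passed the test. WWTR1 (chr3:149517235-149736714, minus strand) had 98.1, 83.0 and 86.6 CPM in siControl and 71.6, 75.0 and 79.3 CPM in siZEB1, without overlap.

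The log2 fold change of WWTR1 was -0.25 (SE 0.074, 95% confidence interval -0.40 to -0.09, adjusted p = 0.0139). It was -0.17 without siControl 1 (adjusted p = 0.0804) and -0.21 without siZEB1 1 (adjusted p = 0.0874), so the call was lost when either of these cultures was left out. Antisense genes share 9.98% of the exon bases of YAP1 and 9.45% of those of WWTR1, and whether the counting used the strand is not stated. The ratio of YAP1 to WWTR1 was 3.46, 3.69 and 3.24 in siControl and 4.12, 3.75 and 3.90 in siZEB1 (log2 difference 0.18, exact permutation p = 0.10, adjusted 0.133). The summed level of both coactivators was 47.3 ± 4.28 CPM per kilobase in siControl and 44.0 ± 1.97 in siZEB1, with overlapping groups.

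TEAD1 (chr11:12674591-12944483, plus strand), which brings YAP1 and TAZ to DNA, had 358, 353 and 298 CPM in siControl and 246, 219 and 272 CPM in siZEB1. Every siControl value was above every siZEB1 value. The mean was 336 ± 33.5 CPM in siControl and 246 ± 26.3 CPM in siZEB1 (log2 fold change -0.45, SE 0.080, 95% confidence interval -0.62 to -0.28, adjusted p = 0.000224). TEAD4 (chr12:2959330-3040673, plus strand) had 132, 134 and 144 CPM in siControl and 127, 124 and 118 CPM in siZEB1. These values did not overlap, but the log2 fold change of -0.15 (95% confidence interval -0.28 to -0.02) had an adjusted p of 0.0647, and it passed only with scaling by total library size (-0.16, adjusted p = 0.0472). Without both cultures numbered 3, the log2 fold change of TEAD4 was -0.082 (adjusted p = 0.239).

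Of the other TEAD factors, TEAD2 had 23.9, 21.8 and 22.4 CPM in siControl and 12.8, 14.7 and 11.9 CPM in siZEB1 (log2 fold change -0.79, adjusted p = 5.71e-06). TEAD3 changed by -0.27 (adjusted p = 0.0138), and by -0.22 without siZEB1 2 (adjusted p = 0.083). Per kilobase, TEAD4 was the most abundant of the family in both groups, with 53.7% of the summed level in siControl and 58.9% in siZEB1, and TEAD2 the least. The family sum was 113, 111 and 111 CPM per kilobase in siControl and 93.8, 89.7 and 92.4 in siZEB1, a change of -17.8% with no overlap. The family sums were formed after the gene values had been seen and carry no test. The ratio of TEAD4 to TEAD1 was 1.66, 1.72 and 2.19 in siControl and 2.33, 2.56 and 1.97 in siZEB1, and the groups overlapped (log2 difference 0.30, exact permutation p = 0.20, adjusted 0.20). The overlap lies only between siControl 3 (2.19) and siZEB1 3 (1.97). TEAD4 is in the length class with the shortest exons and TEAD1 in that with the longest. Cultures numbered 3 deviated in opposite directions in these classes, and the part of gene length in this ratio was not tested.

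**Figure D3:**
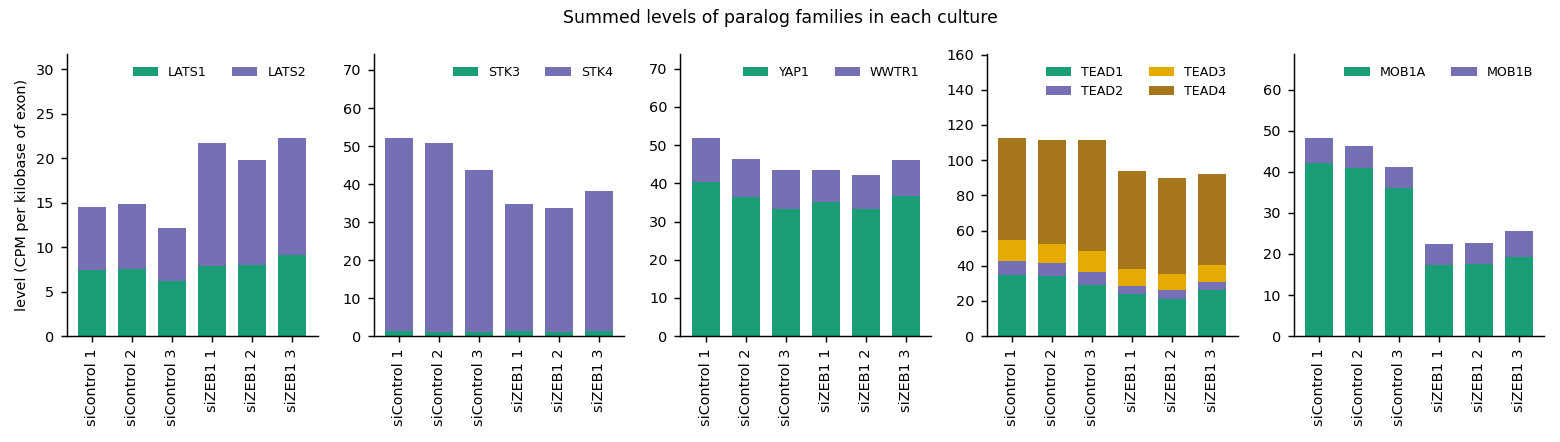
Summed level (CPM per kilobase of exon, bars from 0) of 5 paralog families in each culture, with each gene as a segment. The LATS sum is higher and the STK, TEAD and MOB1 sums are lower in all 3 siZEB1 cultures than in any siControl culture, while the sums of YAP1 and WWTR1 overlap.

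The genes classed as targets among the 10, ANKRD1 and AMOTL2, differed from each other. LATS2 was classed as a kinase, and its rise is not part of this comparison. ANKRD1 (chr10:90912096-90921276, minus strand), a muscle ankyrin repeat protein and a widely used readout of YAP1 and TAZ, had 640, 596 and 625 CPM in siControl and 457, 450 and 448 CPM in siZEB1. Its mean was 621 ± 22.7 CPM in siControl and 452 ± 4.68 CPM in siZEB1 (log2 fold change -0.46, SE 0.052, 95% confidence interval -0.57 to -0.35, adjusted p = 2.13e-06). AMOTL2 (chr3:134355874-134375479, minus strand), a target gene whose product binds YAP1 and also restrains it, had 171, 175 and 164 CPM in siControl and 172, 165 and 170 CPM in siZEB1. The groups overlapped, and the log2 fold change of -0.01 had a 95% confidence interval from -0.13 to 0.11 (adjusted p = 0.928). The ANKRD1 promoter window held an E-box (CACCTG) and the TEAD motif. Neither AMOTL2 window held both, since the TEAD motif was at one start and an E-box of other letters (CAGGTA) at the other.

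In siControl the order of the 10 genes per kilobase of exon ran from ANKRD1 (314 ± 11.5 CPM per kilobase) over TEAD4, STK4, YAP1, TEAD1, AMOTL2, WWTR1, LATS1 and LATS2 to STK3 (1.18 ± 0.114). The cultures of YAP1 and TEAD1, of TEAD1 and AMOTL2 and of LATS1 and LATS2 overlapped, so these neighbours cannot be placed in order. The order also rests on the annotated exon length, not on the length of the expressed isoforms. In siZEB1 the order was ANKRD1, TEAD4, YAP1, STK4, AMOTL2, TEAD1, LATS2, WWTR1, LATS1 and STK3, in which YAP1 and STK4, and WWTR1 and LATS1, overlapped. ANKRD1 remained the highest at 228 ± 2.36 CPM per kilobase.

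The pathway above LATS was followed with a list of 35 further genes, of which 34 were listed and tested. Of these, 5 rose, 10 fell and 19 did not pass, beside 19.0% higher and 21.2% lower among all tested genes, with a median log2 fold change of -0.11. The widest fall was in MOB1A, the cofactor that LATS1 and LATS2 need for activity, which had 271, 264 and 233 CPM in siControl and 111, 113 and 124 CPM in siZEB1 (log2 fold change -1.14, SE 0.069, adjusted p = 1.55e-09). Its paralog MOB1B, named after its value was seen, had 48.6 ± 5.93 and 48.5 ± 5.36 CPM (log2 fold change -0.01, adjusted p = 0.971). The share of MOB1A in the summed level of both per kilobase was 87.8% in siControl and 76.6% in siZEB1, and the sum changed by -48.0%. SAV1, the scaffold of STK3 and STK4, had a log2 fold change of 0.02 (95% confidence interval -0.13 to 0.16, adjusted p = 0.853), and ATL1, on the other strand, shares 14.9% of its exon bases.

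Among 16 tested activators that act above STK3, STK4 and LATS, 1 rose and 4 fell (all tested genes: 19.0% and 21.2%). WWC1, which encodes the scaffold KIBRA, had 138, 143 and 140 CPM in siControl and 209, 215 and 211 CPM in siZEB1 (log2 fold change 0.59, SE 0.057, adjusted p = 3.19e-07). NF2, the gene of the membrane scaffold Merlin, fell from 73.5 ± 0.389 to 62.7 ± 1.30 CPM (log2 fold change -0.23, adjusted p = 0.00778). The kinase genes TNIK (log2 fold change -0.88, adjusted p = 6.25e-07) and MAP4K5 (-0.45, adjusted p = 0.000228) also fell, both of the MAP4K family that can phosphorylate LATS.

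STK38, an NDR kinase that is related to LATS and also binds MOB1, had 72.7, 71.6 and 66.7 CPM in siControl and 128, 121 and 126 CPM in siZEB1 (log2 fold change 0.83, SE 0.065, adjusted p = 3.13e-08). Of the 10 genes of STRIPAK, the phosphatase complex that removes phosphate from STK3 and STK4, 2 rose and 4 fell (all tested genes: 19.0% and 21.2%), with log2 fold changes from -0.36 to 0.27. The groups did not overlap for 4 of these 10 genes (2 higher and 2 lower), beside 49.5% of all tested genes. Of the 3 LIM proteins that bind and inhibit LATS, 1 rose and LIMD1 fell (log2 fold change -0.43, adjusted p = 0.00862), the latter not without siControl 2 (-0.34, adjusted p = 0.0608) or siZEB1 1 (-0.35, adjusted p = 0.0567). Over the whole list, 3 genes rose and 5 fell without siZEB1 1, 6 fell without siControl 2, and 16 fell without both cultures numbered 3.

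**Figure D4:**
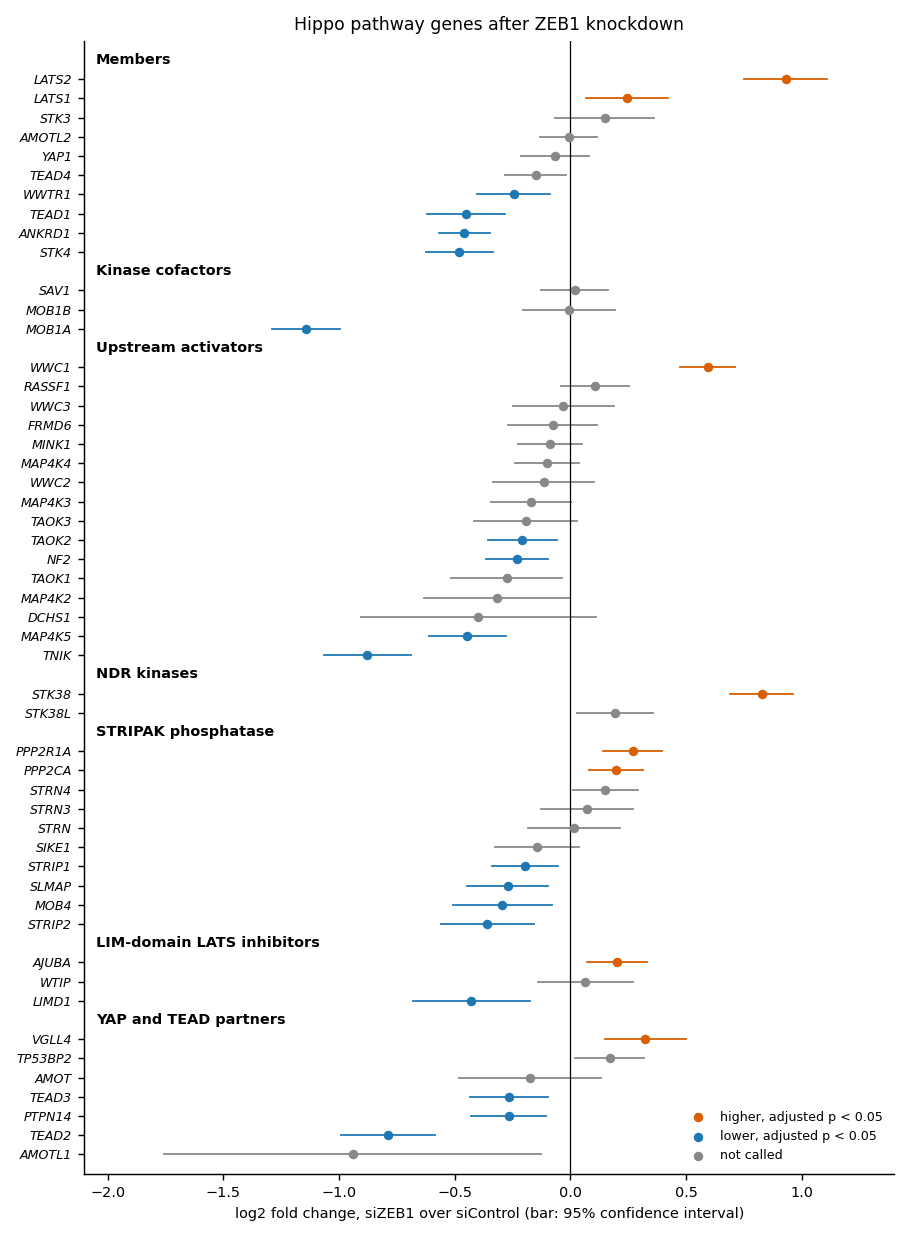
Log2 fold change (siZEB1 over siControl) with its 95% confidence interval for the 10 genes and for the tested genes of the pathway and partner lists, grouped by role and coloured by the call at an adjusted p under 0.05. MOB1A (-1.14) and LATS2 (0.93) have the largest called changes on either side.

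Proteins that bind YAP1, TAZ or TEAD formed a list of 9 genes, of which 7 were tested. Of these, 1 rose and 3 fell, where 19.0% of all tested genes were higher and 21.2% lower. VGLL4, which competes with YAP1 for TEAD factors, rose from 31.7 ± 2.99 to 39.7 ± 1.78 CPM (log2 fold change 0.32, adjusted p = 0.00466), and genes on the other strand share 23.7% of its exon bases. TEAD2 and TEAD3 fell, as given above, and PTPN14, a phosphatase that binds YAP1, changed by -0.27 (adjusted p = 0.0104), while its groups overlapped. That call was lost without siControl 2 (-0.22, adjusted p = 0.0666) or siZEB1 2 (-0.20, adjusted p = 0.0749), and without siZEB1 2 only 1 gene of the list fell. The angiomotins bind YAP1 and TAZ and hold them outside the nucleus. AMOT did not pass the test (log2 fold change -0.18, adjusted p = 0.36, and -0.056 without siControl 2 or -0.29 without siControl 3). AMOTL1 had 21, 15 and 15 reads in siControl and 8, 6 and 10 in siZEB1 and did not pass either (log2 fold change -0.94, adjusted p = 0.0615).

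The readout of YAP1 and TAZ was then read from 19 further target genes, of which 17 were tested. Of these, 4 rose, 10 fell and 3 did not pass, against 19.0% higher and 21.2% lower among all tested genes. None of the 10 genes is in this list, so LATS2 (log2 fold change 0.93), ANKRD1 (-0.46) and AMOTL2 (-0.01) are outside its counts. The median log2 fold change was -0.27 beside -0.0055 over all tested genes. The falls included NT5E, an enzyme of the cell surface that makes adenosine (log2 fold change -0.94, adjusted p = 1.11e-06), the stress gene GADD45A (-0.63, adjusted p = 5.79e-06), the transmembrane protein gene CRIM1 (-0.48, adjusted p = 0.000444), the ferlin gene MYOF (-0.43, adjusted p = 0.000109) and the receptor kinase AXL (-0.30, adjusted p = 0.000579). NT5E had 20.3, 20.6 and 17.7 CPM in siControl and 10.4, 9.52 and 10.7 CPM in siZEB1. AXL had 168, 163 and 161 CPM in siControl and 134, 127 and 137 CPM in siZEB1. In both genes every siZEB1 culture was below every siControl culture. PTPN14 is in this list as well and is counted in it.

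CCN1 and CCN2, matricellular proteins and the most used readouts of YAP1 and TAZ beside ANKRD1, were on the other side. CCN1 had 145, 147 and 150 CPM in siControl and 240, 237 and 236 CPM in siZEB1, a rise from 147 ± 2.52 to 238 ± 2.34 CPM (log2 fold change 0.69, SE 0.056, adjusted p = 4.13e-08). The spread within each group was small beside the gap between them. CCN2, with its 3 TEAD motifs, had only 41, 39 and 39 reads in siControl and 58, 54 and 49 reads in siZEB1. Its log2 fold change was 0.57 (95% confidence interval 0.15 to 0.99, adjusted p = 0.0286). The call for CCN2 was lost in DESeq2 (adjusted p = 0.0778), with no filter on low counts (0.0561) and without siControl 1 (0.0591), siControl 2 (0.103), siZEB1 1 (0.104) or siZEB1 2 (0.0637, all adjusted p). The number of target genes that rose was 2 in DESeq2, 1 without siControl 1 or siZEB1 1, and 2 without siControl 2 or siZEB1 3.

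**Figure D5:**
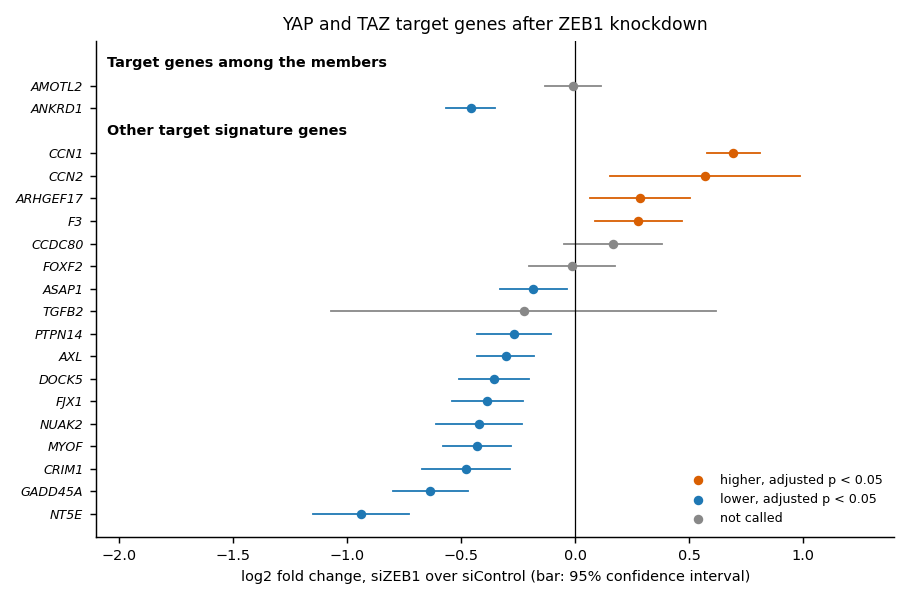
Log2 fold change (siZEB1 over siControl) with its 95% confidence interval for AMOTL2 and ANKRD1 and for the 17 tested genes of the target list, coloured by the call at an adjusted p under 0.05. CCN1 (0.69) and NT5E (-0.94) lie at opposite ends, and ANKRD1 (-0.46) is among the genes that fell. LATS2 (0.93), classed with the kinases, is not in this figure.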

How the data were processed

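Per the labels, RNA of SW480 cells was extracted with Trizol. The authors deposited raw counts of reads per Ensembl gene in each of the 6 cultures, without normalization. The submitters' processing notes name Trimmomatic, HISAT2, SAMtools and featureCounts with hg38; versions, annotation, strandedness and the treatment of shared reads are not given in the sources used here, so genes with exons in common on either strand are uncertain to that extent.

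The 14996 of 32029 listed genes kept by edgeR's filterByExpr were scaled by TMM and compared by edgeR's quasi-likelihood test (edgeR 4.0.16, R 4.3.3), two-sided and without covariates, with Benjamini-Hochberg adjustment over these 14996 genes at a threshold of 0.05. The SE was taken from the fold change and its F statistic. The biological coefficient of variation was 6.58%, and 19040636 to 22357633 counts per culture stood behind it. Counts of any 2 cultures in the same group gave a chi-square over degrees of freedom of 2.18 to 8.58, above sampling noise, so none was a copy of another. CPM per kilobase used the union of exons in GENCODE 29 on GRCh38. Levels, shares and orders between genes depend on that length, while the change of a single gene between the groups does not. Promoter sequences and starts are from RefSeq (GRCh38.p14). Paralog ratios were compared by exact permutation tests over cultures.

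The 10 genes and the lists were chosen with earlier results of these data known. Beside all 10 genes and ZEB1, the named genes were SAV1, MOB1A, NF2, WWC1, AMOT, AMOTL1, PTPN14, VGLL4, TEAD2, TEAD3, CCN1, CCN2 and AXL whatever their value, and the 4 called genes of each of the 3 pathway lists with the largest change at a mean of at least 1 CPM. The comparison by gene length, the sums of families and the omission of both cultures numbered 3 were added after the data were seen. The scripts were tested on simulated counts; the limit set for that test was changed after a first run had fallen below it, and no value from it is used. Alternatives were a block for the replicate number, leave-one-out fits over the cultures, DESeq2 1.42.0, scaling by total library size or by the median of ratios, no filter on low counts or one of 10 counts in each culture, and the fold limit of 1.5 with an unadjusted p under 0.05.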

Additional observations from a re-analysis of the deposited data

How the results depend on the processing

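Of 13 alternatives for each of 32 named genes, 21 genes kept their direction and their side of the threshold in every one that gave a value, among them LATS2 (log2 fold change 0.84 to 0.99), STK4 (-0.60 to -0.43), TEAD1 (-0.61 to -0.38) and ANKRD1 (-0.49 to -0.44). YAP1 changed sign without siControl 1 (0.0061), AMOTL2 without siControl 2 (0.013) or siZEB1 2 (0.011), and SAV1 without siControl 3 (-0.011), siZEB1 3 (-0.0013) or both (-0.027); none of these values passed the test, and leaving out 1 culture gave -0.13 to 0.0061 for YAP1, -0.036 to 0.013 for AMOTL2 and -0.011 to 0.063 for SAV1. With a fold above 1.5 and an unadjusted p under 0.05, 1 of the 10 genes was higher and 0 lower. In this setting 2 upstream genes were higher and 2 lower, 0 partner genes were higher and 2 lower (TEAD2 and AMOTL1), and 1 target gene was higher and 2 lower. AMOTL1, with 6 to 21 reads, was not called in the main comparison (unadjusted p = 0.026, adjusted p = 0.0615) and was gained here. Every gene called in the main comparison also has an unadjusted p under 0.05, so those lost here were lost to the limit on the fold. With the replicate block, 1 of the 10 genes was higher (LATS1 adjusted p = 0.0714, WWTR1 0.0561, NF2 0.056, CCN2 0.0524), 3 upstream genes were higher and 6 lower, and 1 target gene was higher. Cultures with the same number had correlations of their deviations of -0.33, -0.34 and -0.66, so they did not deviate in the same direction. Between cultures with different numbers the correlations ran from -0.41 (siControl 1 with siZEB1 2) to 0.56 (siControl 3 with siZEB1 2). Deviations shared between the groups are thus not excluded. Whether cultures with the same number were handled together cannot be told from this. The deviations of 3 cultures from their mean are tied to each other, and those numbered 3 deviated by gene length in opposite directions. Without both cultures numbered 3, 1 of the 10 genes was higher and 16 upstream genes were lower. Target genes that rose numbered 2 with DESeq2 and 2 with no filter; the cause was not tested. Leaving out 1 culture gave 1 to 2 of the 10 genes higher and 3 to 4 lower, 3 to 6 upstream genes higher and 5 to 11 lower, 1 partner gene higher and 1 to 3 lower, and 1 to 4 target genes higher and 8 to 10 lower. The log2 ratios kept their direction, from 0.60 to 0.74 for LATS2 over LATS1, -0.65 to -0.59 for STK4 over STK3, 0.13 to 0.23 for YAP1 over WWTR1 and 0.22 to 0.43 for TEAD4 over TEAD1. Depth limits AMOTL1 and CCN2, with at most 58 reads in a culture.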
